A study of Mus musculus with 12 samples.

Results

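The regions described here are stretches of acetylated chromatin that lie alone inside genes, away from the gene ends, and recur across libraries of mouse adipocyte progenitors. They were chosen by the deposited peak score and by presence in several libraries. In each of 6 H3K27ac ChIP-seq peak lists the 30000 peaks of highest score were kept and overlapping peaks of the lists were merged. A merged region was a member if at least 5 libraries held a peak in it, if it lay over 1 kb from both ends of every protein-coding gene span, if its midpoint was inside such a span, and if no other region that met the first 2 conditions lay within 12500 bp. This gave 946 members of 127635 merged regions, of which 6901 were held by at least 5 libraries and 1328 of those lay away from gene ends. The other shared regions away from gene ends were 292 solitary regions between genes and 90 regions that lay in clusters.

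The cells came from subcutaneous fat of Azin2-/- mice (3 libraries, labelled replicates 1, 2 and 8) and of wild-type mice (3 libraries, labelled replicates 1, 2 and 2b). Azin2 encodes antizyme inhibitor 2, a regulator of polyamine synthesis, and the labels name neither the kind of deletion nor the strain or age of the mice. The culture was the same for both genotypes. It began with 1 week in 10% serum at 4.5 g/l glucose, went on with 2 days of induction by rosiglitazone and dexamethasone (1 µM of each), isobutylmethylxanthine (0.5 mM) and insulin (5 µg/ml), and ended with 5 days in which insulin was the sole addition. The labels call the cells progenitors although this is an adipogenic schedule, and they do not tie the replicates to separate animals or cultures. P-values therefore measure only the spread between these libraries, which may be technical.

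H3K27ac is the acetyl group on lysine 27 of histone H3. It sits on nucleosomes that flank active transcription starts and active enhancers, the distant elements that raise transcription of a gene. Acetylated regions deep inside genes are often read as enhancers, but many mammalian genes also have alternative promoters, internal starts from which shorter transcripts of the same gene are made. Such starts lie far from the outer ends of the gene span, so a distance filter on gene ends does not remove them.

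Annotated internal starts were common among the members. RefSeq start windows on GRCm38.p6, which run from 250 bases before to 50 bases after a transcript start, could be set against 909 members (the other 37 lie on a chromosome with no windows in the table used). Of these 909, 475 (52.3%, 95% exact binomial interval 49.0 to 55.5) contained the start of a protein-coding transcript. The interval treats members as independent draws and does not cover the choice of rule. With the 60000 and 5000 strongest peaks of each list the share was 47.7% and 73.6%. In all 475 the start belonged to the host gene, which the distance rule itself brings about. The windows of 7 of them are shown because they span the range seen: 3 of the 10 strongest members (Elf2, Osbpl11, Ankrd17), a member with less cover in every Azin2-/- library (Runx1), and list genes with a CpG-rich (Gpam) and with CpG-poor starts (Tgfb2, Tcf7l2). Each is written 5′ to 3′ on the strand of the gene, with its last 50 bases inside the transcript. Capitals mark matches, on either strand, to a GC box, a CCAAT box, a TATA box, an ETS core or an E-box, whose letters are given with their frequencies further on.
Elf2: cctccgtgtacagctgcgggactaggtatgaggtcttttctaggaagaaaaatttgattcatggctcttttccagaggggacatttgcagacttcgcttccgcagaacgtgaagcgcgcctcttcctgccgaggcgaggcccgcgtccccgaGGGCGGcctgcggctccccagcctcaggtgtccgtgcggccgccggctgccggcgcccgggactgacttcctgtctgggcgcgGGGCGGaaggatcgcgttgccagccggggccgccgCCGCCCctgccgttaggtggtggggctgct
Osbpl11: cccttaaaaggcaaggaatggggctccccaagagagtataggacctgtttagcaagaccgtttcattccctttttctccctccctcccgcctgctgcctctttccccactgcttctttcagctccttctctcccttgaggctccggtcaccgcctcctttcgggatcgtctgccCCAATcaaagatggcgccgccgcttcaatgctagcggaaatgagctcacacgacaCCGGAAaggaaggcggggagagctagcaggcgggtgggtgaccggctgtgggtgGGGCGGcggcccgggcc
Ankrd17: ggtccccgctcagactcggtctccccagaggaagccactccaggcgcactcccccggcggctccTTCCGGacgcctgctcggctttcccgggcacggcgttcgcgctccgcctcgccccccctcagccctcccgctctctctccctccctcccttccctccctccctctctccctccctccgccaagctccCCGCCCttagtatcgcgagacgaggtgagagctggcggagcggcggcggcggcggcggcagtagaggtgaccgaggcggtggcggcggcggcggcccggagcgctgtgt
Runx1: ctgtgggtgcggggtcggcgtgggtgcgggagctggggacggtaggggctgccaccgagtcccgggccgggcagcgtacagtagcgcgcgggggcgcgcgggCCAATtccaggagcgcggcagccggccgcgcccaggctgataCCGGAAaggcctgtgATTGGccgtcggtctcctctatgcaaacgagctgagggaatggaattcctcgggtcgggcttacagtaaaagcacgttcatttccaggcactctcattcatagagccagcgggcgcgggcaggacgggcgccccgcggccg
Gpam: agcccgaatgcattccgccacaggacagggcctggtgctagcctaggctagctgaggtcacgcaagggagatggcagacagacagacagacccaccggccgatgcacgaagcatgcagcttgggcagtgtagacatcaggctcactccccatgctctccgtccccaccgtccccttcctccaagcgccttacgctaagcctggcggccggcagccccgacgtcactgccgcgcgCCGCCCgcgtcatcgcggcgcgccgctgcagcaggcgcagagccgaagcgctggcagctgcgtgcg
Tgfb2: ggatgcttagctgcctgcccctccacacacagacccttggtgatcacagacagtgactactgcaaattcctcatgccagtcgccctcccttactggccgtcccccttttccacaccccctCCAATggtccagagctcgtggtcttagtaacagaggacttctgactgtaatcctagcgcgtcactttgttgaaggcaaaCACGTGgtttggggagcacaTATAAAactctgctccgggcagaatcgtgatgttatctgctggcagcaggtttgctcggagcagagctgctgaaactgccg
Tcf7l2: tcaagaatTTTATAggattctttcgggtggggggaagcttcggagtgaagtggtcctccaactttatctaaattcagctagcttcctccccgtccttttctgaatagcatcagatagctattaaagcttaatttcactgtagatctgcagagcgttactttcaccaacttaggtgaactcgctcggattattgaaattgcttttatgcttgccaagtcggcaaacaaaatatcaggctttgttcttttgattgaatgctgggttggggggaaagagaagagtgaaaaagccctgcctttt

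The Elf2 window (chr3:51277465-51277764, minus strand) lay 63169 bp downstream of the outer 5′ end of the gene, which encodes an ETS transcription factor. It had 67.0% GC, a CpG observed over expected ratio of 0.923 and matched the GC box alone, on both strands. The Osbpl11 window (chr16:33184821-33185120, plus strand) lay 15308 bp into the gene of this oxysterol-binding protein relative, and the Ankrd17 window (chr5:90366136-90366435, minus strand) lay 2508 bp into a gene for an ankyrin-repeat protein. The Runx1 window (chr16:92697280-92697579, minus strand) lay 128745 bp into the gene. Runx1 encodes a Runt-domain transcription factor and is a textbook case of a gene with a distal and a proximal promoter. Its window had a CpG ratio of 1.01 and matched the CCAAT box on both strands. The Gpam window (chr19:55099428-55099727, minus strand), in the gene of the mitochondrial acyltransferase that opens triglyceride synthesis, lay 27842 bp in and had a CpG ratio of 0.873. The Tgfb2 window (chr1:186705940-186706239, minus strand) lay 3708 bp into the gene of this growth factor and had 54.3% GC, a CpG ratio of 0.458 and matches to the TATA box, the CCAAT box and the E-box. The Tcf7l2 window (chr19:55895071-55895370, plus strand) lay 153524 bp into the gene of the main nuclear partner of beta-catenin. At 42.0% GC and a CpG ratio of 0.534 it matched the TATA box alone.

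The starts inside members were mostly of the CpG-rich kind. Members held 602 coding start windows of 470 genes, with a median GC of 67.0% (interquartile range 61.0 to 72.7) and a median CpG observed over expected ratio of 0.824 (0.684 to 0.949). The other 323 start windows of the same host genes, known for 230 of them, had 54.3% GC and a ratio of 0.392 (0.216 to 0.693), and all 21045 coding start windows had 56.7% and 0.574. With CpG-rich taken as a ratio of at least 0.6 and at least 50% GC, the shares were 83.4% inside members, 29.1% in the other windows of the hosts and 45.6% of all. Compared within a host, the highest ratio among windows inside the member exceeded the highest among its other windows in 176 of 230 genes (76.5%). Windows of 1 gene can overlap, so these are descriptions and carry no test.

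**Figure D1:**
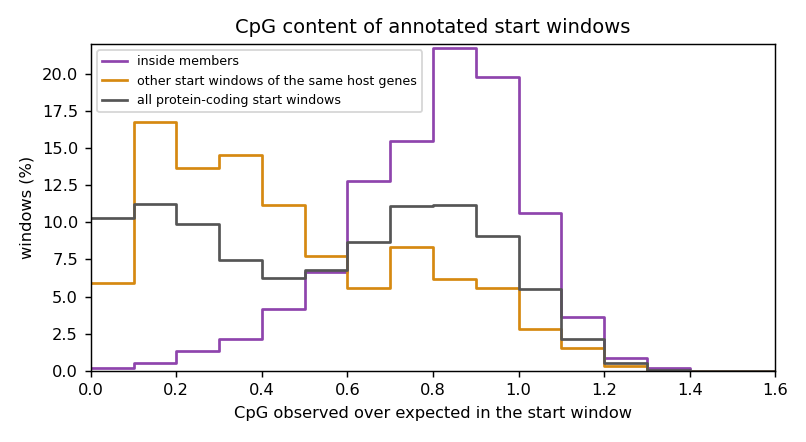
Share of start windows (%) by the ratio of observed to expected CpG, for windows inside members (602), other windows of the same host genes (323) and all coding windows (21045). The windows inside members have their highest share between 0.8 and 0.9, and the other windows of the same genes between 0.1 and 0.2.

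The GC box (GGGCGG), bound by SP and KLF factors, occurred in 77.1% of windows inside members, 38.4% of the other windows of the hosts and 46.7% of all windows. The TATA box (TATAAA) occurred in 4.49%, 10.2% and 12.7%, and the CCAAT box, searched as its name spells, in 29.9%, 37.8% and 38.5%. The letters GCGCATGC of NRF1, a regulator of housekeeping promoters, occurred in 4.98%, 0.929% and 3.54%. TGACTCA, the site of AP-1, occurred in 3.49%, 6.81% and 4.69%, and the cyclic AMP element TGACGTCA in 2.33%, 0.929% and 2.26%. The ETS core CCGGAA occurred in 19.1%, 10.5% and 18.9%, and the E-box letters CACGTG in 7.81%, 8.67% and 7.91%. Both strands were searched, and overlapping matches were not told apart. A match is a run of letters in a window and does not show that a factor bound.

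The more libraries held an intragenic region, the more often it contained a coding start. Among all regions inside genes and over 1 kb from gene ends, whether solitary or not, the share was 0.384% of 42988 regions held by 1 library, 4.35% of 2573 held by 2, 14.5% of 716 held by 3, 24.5% of 462 held by 4, 34.2% of 441 held by 5 and 64.3% of 524 held by 6. Regions held by more libraries were also wider, with median widths of 575, 1081, 1374.5, 1507.5, 1832 and 1957 bp in the same order, and the part of width in this was not tested. Within the members, 328 of 496 held by all 6 libraries (66.1%) and 147 of 413 held by 5 (35.6%) had a start. Of the clustered regions 13 of 84 (15.5%) had one, and of their 56 intragenic ones 23.2%. The solitary intergenic regions had none in 285, which the distance rule itself brings about.

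**Figure D2:**
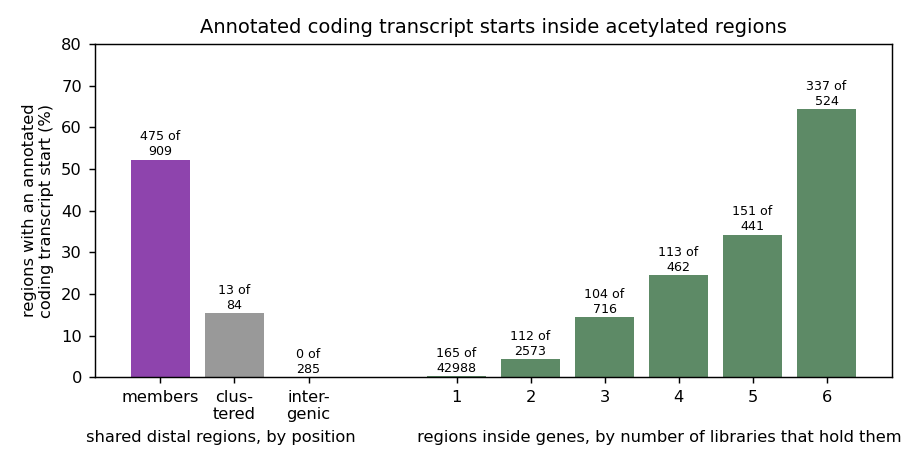
Share of regions (%) that contain an annotated coding transcript start, for the members, the clustered and the solitary intergenic regions (left), and for all regions inside genes and over 1 kb from gene ends by the number of libraries that hold them (right). The share is 52.3% in members and rises with every added library, to 64.3% at 6.

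The share with a start also followed the strength of the members. Ranked by their mean position in the score order of the libraries, the strongest 182 members had a start in 76.9%, the following groups of 182 in 63.7%, 54.4% and 36.3%, and the weakest 181 in 29.8%. Median widths of these 5 groups lay between 1800 and 1978 bp. Members with a start had a median mean rank of 4566 against 7069 without, while their median widths were 1915 and 1845 bp. The share was lower far from gene ends: 55.6% of members at 1 to 2 kb had a start, 56.4% at 2 to 5 kb, 57.2% at 5 to 10 kb, 47.6% at 10 to 50 kb and 43.2% farther than 50 kb. A start of a non-coding transcript lay in 85 members (9.35%), some of which also held a coding start, and 408 (44.9%) contained neither kind. A host had at least 1 coding start window for 758 members, and 62.7% of those contained a coding start. The hosts of the remaining members had no such window. No coding start could be found in these members, and they count as neither unless they held a non-coding start.

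Peak summits lay downstream of the contained start in every library. Over the members with a single coding start, 327 to 379 per library, the median summit was 203, 197 and 169 bp into the transcript in Azin2-/- replicates 1, 2 and 8, against 181, 198 and 185 bp in wild-type replicates 1, 2 and 2b. Between 80.4% and 83.9% of summits were downstream. Summits at 150 to 1000 bp downstream made up 50.8% to 58.8%, and those at the same distances upstream 7.73% to 11.1%. The side was the same in all 6 libraries, and the medians of the genotypes overlapped.

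**Figure D3:**
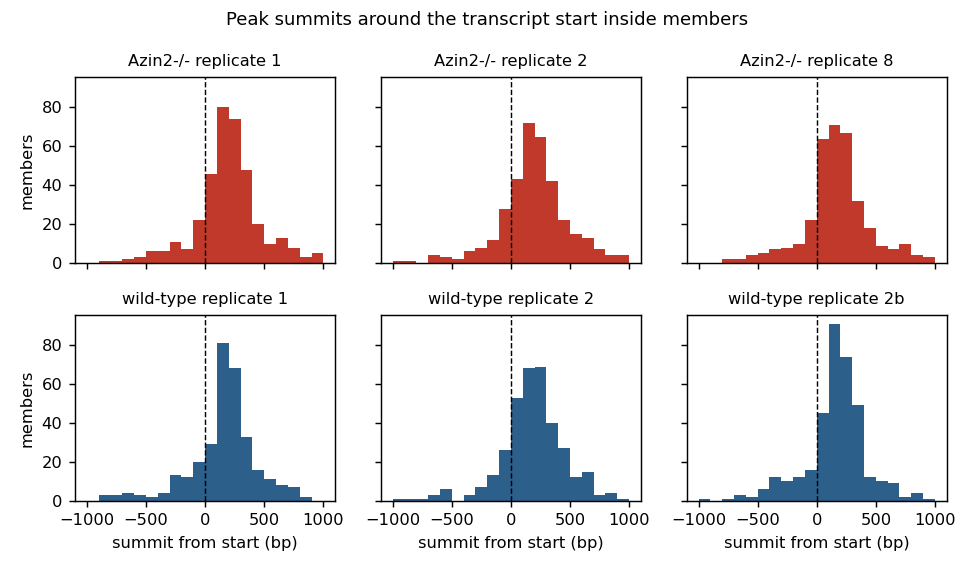
Number of members by the distance (bp) of the peak summit from the contained coding start, in bins of 100 bp with positive values inside the transcript, for Azin2-/- libraries (top, red) and wild-type libraries (bottom, blue). In each of the 6 libraries the distribution peaks within 300 bp downstream of the start (dashed line).

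Hosts of members with a start often had no kept peak at their outer 5′ end. Of 470 such genes, 64 (13.6%) had a kept peak within 1 kb of the 5′ end of the span in at least 5 libraries, and 285 (60.6%) had one in no library. Of 255 hosts of members without a start, 100 (39.2%) had the outer 5′ end held by at least 5 libraries and 67 (26.3%) by none. Of all 17274 genes with a known strand, 4632 (26.8%) were held by at least 5 and 7586 (43.9%) by none. The member rule leaves out regions within 1 kb of a gene end. An internal start merged into 1 region with the outer 5′ end therefore cannot lie in a member. The part of this in the shares was not tested. Runx1, Osbpl11, Ankrd17, Tgfb2 and Gpam had the outer 5′ end held by 0 libraries, while Elf2 and Tcf7l2 had it held by 6.

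The members recurred unevenly among the libraries. All 946 were held by Azin2-/- replicate 1, 910 by Azin2-/- replicate 2 and 862 by Azin2-/- replicate 8, against 735 by wild-type replicate 1, 899 by wild-type replicate 2 and 891 by wild-type replicate 2b. All 6 libraries held 513 members (54.2%). Of the remaining 433, wild-type replicate 1 missed 211, more than any other library, and across genotypes 120 members were missing from an Azin2-/- list and 313 from a wild-type list. Wild-type replicate 1 missed 71 members with a coding start (14.9%) and 131 without (30.2%). The lists held 741843 to 1216000 deposited peaks on the chromosomes used, and 13843 to 54847 peaks at a deposited q of 0.05 or less, with the highest number in Azin2-/- replicate 1. Read depth is unknown. Of the members a library held, 88.7% to 100% had a peak at that q, 93.7% to 97.8% had a single peak, and the authors' median fold over local background ran from 3.62 in Azin2-/- replicate 8 to 13.4 in Azin2-/- replicate 1. No 2 lists shared more than 9 identical peaks.

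As a check on the cells, the peaks at gene ends were set against marker genes. Among 6 adipocyte markers Cebpa and Plin1 had a peak in all 6 libraries, Pparg in 3, Fabp4 and Lpl in 1 each and Adipoq in 0. Among 8 progenitor markers none had a peak in all 6. Twist2 had one in 5, Prrx1 in 4, Dlk1 in 3, Cd34 and Dcn in 2, Lum in 1, and Pdgfra and Ly6a in 0. Of 18 markers of immune, endothelial, muscle and epithelial cells, Epcam alone had a peak in all 6, Spi1 and Cdh1 had one in 5 libraries each, the muscle markers Des, Myod1, Pax7 and Myog in 4, 3, 3 and 1, and Csf1r and Kdr in 2 each. Itgam, Tie1, Krt8 and Krt18 had one in 1 library each, and Ptprc, Adgre1, Pecam1, Cdh5 and Tek in 0. The check covers gene ends alone, and Pdgfra hosts a member 1370 bp from its end that 5 libraries held. The part of other cell types in the results was not tested. A bulk library cannot tell fewer acetylated cells from less acetylation per cell.

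The strongest member was a short region in Grid1, which encodes a delta glutamate receptor (chr14:35502133-35502406). It ranked 13, 7 and 171 in Azin2-/- replicates 1, 2 and 8, against 3, 65 and 232 in wild-type replicates 1, 2 and 2b. Its cover was 273, 271 and 271 bp in these Azin2-/- libraries, against 273, 271 and 273 bp in the wild-type ones. Only 2 members kept their width to within 10 bp in every library that held them, and both were among the strong ones: this region and the narrowest member, of 193 bp in Slc1a5, a neutral amino acid carrier, with 192, 190 and 190 bp in Azin2-/- libraries, against 193, 191 and 0 bp in wild-type libraries. The member in Slc18b1, a vesicular polyamine carrier, had 192, 191 and 186 bp in Azin2-/- libraries, against 195, 187 and 937 bp in wild-type libraries. These 3 regions are far narrower than the median member of 1874.5 bp, and the input libraries that would show their background were not analysed here.

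Of the 10 strongest members held by all libraries, 6 held a coding start. Elf2 ranked 181, 1216 and 113 in Azin2-/- libraries, against 112, 260 and 417 in wild-type libraries, with cover of 1970, 1474 and 1604 bp against 1595, 1486 and 1767 bp. Cirbp, a cold-inducible RNA-binding protein, ranked 641, 1088 and 85 against 227, 490 and 142. Osbpl11 ranked 95, 498 and 318 against 552, 1598 and 445. Rfx1, a winged-helix factor, Atxn2l, an ataxin-2 relative, and Ankrd17 held coding starts too. Rpl17, a ribosomal protein gene, lies on chromosome 18 and was not set against starts. Cpeb2, which regulates polyadenylation, held a non-coding start, and Nfkbiz, an inducible nuclear regulator of NF-kappa-B, held neither kind. Bicral, Ywhaz and Dynll2, with mean ranks of 1094, 1244 and 1582, also held neither kind. No coding start window was known for Cpeb2, Nfkbiz, Bicral, Ywhaz or Dynll2, so a coding start could not have been found in their members.

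Of the 5 members with the greatest mean cover over the libraries, 3 held several coding starts. Gnas, the imprinted gene of the stimulatory G protein alpha subunit and a known case of alternative promoters, had 4739, 3671 and 3032 bp of cover in Azin2-/- libraries, against 3218, 4097 and 3852 bp in wild-type libraries, and its member held 3 coding starts. Ubtf, which encodes a factor of ribosomal RNA transcription, had 3551, 2799 and 2799 bp, against 3451, 3307 and 3324 bp, with 5 starts. Pdgfa, a ligand of the PDGF receptors with 2 starts in its member, had 4825, 3064 and 773 bp, against 1759, 4984 and 6090 bp, so its libraries differed widely within each genotype. Plec, the cytolinker plectin, had 6978, 4387 and 2769 bp, against 0, 3495 and 2920 bp. No coding start window was known for Plec, so a coding start could not have been found in its member. Unc45b, a myosin chaperone of striated muscle, had 3931, 3459 and 0 bp, against 3391, 3667 and 3688 bp, and held a non-coding start.

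Members ranged from 193 to 7395 bp with a median of 1874.5 bp, and 82 were over 3 kb. Their summits agreed well, with a median range of 234 bp among libraries and 77.0% of members within 500 bp. The 5 members of closest summits were in Slc18b1, Nadk, Trim2, Bcl9l and 9430038I01Rik, with ranges of 13, 22, 23, 33 and 34 bp over all 6 libraries. The members in Nadk, which makes NADP, and Trim2, a ubiquitin ligase, held a coding start. In the others none was found, and no coding start window was known for Bcl9l or 9430038I01Rik. The members lay a median of 6634 bp from the nearest end of a protein-coding gene. Of all members 18.7% were at 1 to 2 kb, and 41.2% were over 10 kb and 13.2% over 50 kb away. A further 172 (18.2%) lay within 1 kb of an end of a non-coding gene. Where the strand of the host was known (758 members), 523 (69.0%) were nearer its 5′ end, and 284 (37.5%) lay in the opening 20% of the gene against 67 (8.84%) in the closing 20%. Members with a start lay a median of 7371 bp from the 5′ end and those without 22447 bp. Members that had neither kind of start and lay over 10 kb from every coding gene end numbered 189 of 909 (20.8%). This count includes members whose host had no coding start window.

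The limits of the rule left close neighbours on both sides. Just inside the gap limit lay a pair of members 12845 bp apart in Gata4. Outside it, a region in Sp8 was 11123 bp from its neighbour, and gaps of clustered regions reached 12499 bp. Just inside the distance limit was a member in Fam155a at 1005 bp from a gene end, and just outside a region at Wapl at 1000 bp.

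The hosts were 907 of 21631 protein-coding genes (4.19%), with 862 holding 1 member, 44 holding 2 and Tenm3 holding 3. They were long, with a median span of 65627 bp against 17329 bp over all genes. A long gene offers more room, so the shares of lists below are to be read against length as well as against 4.19%, and none was tested. The 3 members in Tenm3, a teneurin of neuronal wiring, lay 2438, 328984 and 616817 bp from a gene end, and none held a coding start. Of microRNA hairpins, 4 overlapped members: Mir148a, Mir7687, Mir1904 and Mir6991.

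Among 26 adipogenic transcription factors, 6 were hosts (23.1%, median list span 102702 bp) and gave 6 members. The member in Nr3c1 lies on chromosome 18 and was not set against starts, and 2 of the other 5 held one. Nr3c1, the glucocorticoid receptor that dexamethasone binds, had 3972, 2156 and 3068 bp of cover in Azin2-/- libraries, against 2806, 1969 and 2902 bp in wild-type libraries. Nfia, a factor of brown fat identity, had 2394, 1141 and 1117 bp, against 2071, 1549 and 2345 bp, in a region 198743 bp from a gene end that held no start. The genotypes overlapped at both genes. Tcf7l2 had 755, 460 and 633 bp, against 1072, 581 and 1153 bp, and Stat5b, a signal transducer of growth hormone, had 1240, 1408 and 1242 bp, against 1342, 1216 and 1657 bp. The members in these last genes, Tcf7l2 and Stat5b, are those with a start, and no coding start window was known for Tbx15. Zfp423, a preadipocyte zinc-finger factor, was missing from Azin2-/- replicate 8, and Tbx15, a factor of subcutaneous depots, had 798, 526 and 1253 bp, against 2622, 888 and 1006 bp, with overlap between the genotypes.

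Of 22 AP-1, TEAD and RUNX factors the hosts were Runx1 and Runx2. Runx2, the master factor of bone formation, had 2904, 1575 and 1482 bp in Azin2-/- libraries, against 2886, 2074 and 2905 bp in wild-type libraries, in a region without a coding start. Of 24 TGF-beta and BMP genes Tgfb2 alone was a host, with 1078, 1981 and 0 bp, against 814, 1165 and 1001 bp. Of 22 Wnt genes 3 were hosts. Axin2, a scaffold of beta-catenin destruction and itself a Wnt target, had 2296, 2628 and 2411 bp, against 1986, 1937 and 2506 bp, with a start. The members in Axin1 and in the ligand gene Wnt5a were each missing from a library. No coding start was found in them, but neither gene had a coding start window.

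Chromatin regulators gave the highest share, 9 of 26 (34.6%, median list span 85971.5 bp), with a start in 4 members. Arid1a, a subunit of the BAF remodelling complex, had 3468, 3281 and 2690 bp in Azin2-/- libraries, against 2603, 2855 and 3193 bp in wild-type libraries. Brd3, a reader of acetylated histones, had 2228, 1033 and 2045 bp, against 1542, 1054 and 2067 bp. The class IIa deacetylases Hdac4, Hdac5, Hdac7 and Hdac9, which repress through transcription factors, were all hosts, and Hdac4 and Hdac7 held coding starts. The coactivator Ncoa1 and the remodeller ATPase Smarca2 were hosts whose members lacked them.

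Focal adhesion and actin genes had 6 hosts of 34 (17.6%). Itgav, the integrin alpha V chain, had 1508, 1148 and 1538 bp in Azin2-/- libraries, against 1440, 1426 and 1301 bp in wild-type libraries, and its member held a start. The adaptors Pxn and Bcar1, the tensins Tns1 and Tns3 and the tropomyosin gene Tpm1 were the others, of which Bcar1 held a start. Pxn had no coding start window. Insulin and glucocorticoid response genes had 4 of 22: Pik3r1, the regulatory subunit of PI 3-kinase, with 2 members, Akt2, the kinase of insulin-stimulated glucose uptake, the adaptor Grb10 and the kinase Sgk1, which held 2 starts. Lipid storage genes had 2 of 27, Acaca, the acetyl-CoA carboxylase of fatty acid synthesis, and Gpam. Acaca had 1304, 788 and 1231 bp, against 1510, 791 and 1226 bp.

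Other lists had few or no hosts. Extracellular matrix genes had 1 of 27 (Col12a1), progenitor markers 1 of 20 (Pdgfra, whose member had 1551, 0 and 703 bp in Azin2-/- libraries, against 1331, 1703 and 1074 bp in wild-type libraries), and endothelial markers 1 of 11 (Vwf). Polyamine genes (20), immune markers (12), skeletal muscle markers (12) and epithelial markers (10) had 0.

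Kept peaks covered a greater length of members than of solitary intergenic regions, and a lesser one than of clustered regions. After scaling each library to equal total cover, the mean covered length per region was 1140 ± 61.8 bp in members and 912 ± 91.9 bp in solitary intergenic regions (SD, n = 6 libraries). The difference was 227 ± 45.9 bp and positive in 6 of 6 libraries (two-sided exact sign-flip permutation p = 0.03125, adjusted 0.03125 over 2 comparisons). Against clustered regions, at 1228 ± 95.8 bp, the difference was -88.7 ± 48.1 bp and negative in 6 of 6 libraries (exact permutation p = 0.03125, adjusted 0.03125), the smallest p that 6 libraries allow. A library without a peak enters with 0, and all 6 libraries held 54.2% of members, 37.0% of solitary intergenic regions and 45 of 90 clustered regions. Among regions held by all 6 the differences were 204 and -133 bp. The libraries share the regions, so p covers the spread between libraries and not that between regions. Median mean ranks were 5570 in members, 6884 in solitary intergenic and 5971 in clustered regions. The part of score in the lengths was not tested.

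**Figure D4:**
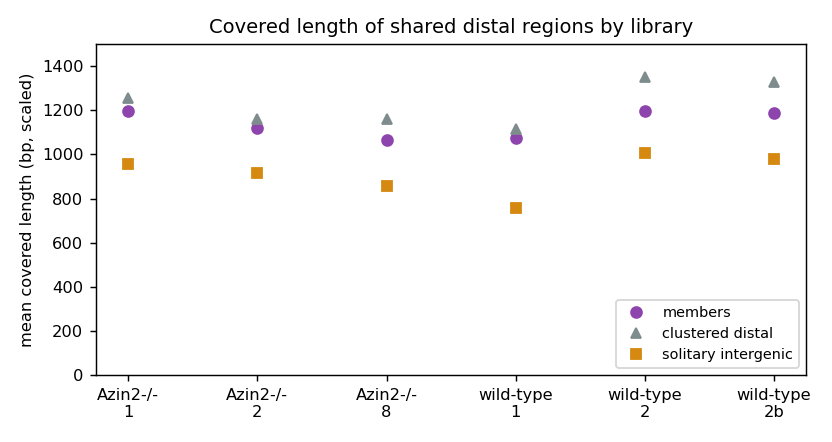
Mean covered length per region (bp, scaled to equal total cover) in each library, for members (circles), clustered distal regions (triangles) and solitary intergenic regions (squares), Azin2-/- libraries left of wild-type ones. In all 6 libraries the members lie between the other 2 kinds.

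No member differed between Azin2-/- and wild-type libraries beyond the spread of the replicates. Covered length, on the scale log2(scaled bp + 200), was compared with limma over all 23909 merged regions with a mean of at least 200 bp, with Benjamini-Hochberg adjustment. Of the 945 members tested 0 had an adjusted p under 0.05 (background 0.00418% of regions), with a smallest limma adjusted p of 0.6003, and the Slc1a5 member fell below the minimum. At an unadjusted p under 0.05, 20 members were higher and 38 lower, beside 908 and 373 of all 23909 regions. Of the 6899 regions held by at least 5 libraries, 103 were higher and 262 lower. The median log2 difference was 0.03 in members and 0.15 in all regions tested, and the median standard error of a member was 0.56.

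Counts without overlap between the genotypes were near those of other shared regions. Every Azin2-/- library had more cover than every wild-type library in 50 members (5.29%, background 4.78%), and every one had less in 59 (6.24%, background 2.54%). Over all regions held by at least 5 libraries the shares were 4.64% and 7.81%. Of the 50, 27 had no cover in wild-type replicate 1, and of the 59, 16 had none in an Azin2-/- library. Among members held by all 6 libraries 14 were higher and 43 lower (2.73% and 8.38%), beside 2.99% and 9.87% of all regions held by 6.

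The 5 members of smallest p in each direction among those without overlap are given as not passing the test, each with a limma adjusted p of 0.6003. Among the members with less cover in Azin2-/- libraries, Bicral, a subunit of a BAF remodelling complex, had 2448, 1447 and 1806 bp in Azin2-/- replicates 1, 2 and 8, against 2670, 2962 and 2907 bp in wild-type replicates 1, 2 and 2b (log2 difference -0.69, SE 0.17). Runx1 had 2412, 1521 and 1489 bp in Azin2-/- libraries, against 3743, 2526 and 2658 bp in wild-type libraries (log2 difference -0.81, SE 0.22; -0.50 without wild-type replicate 1). Mettl21a, a protein lysine methyltransferase, had 1757, 1570 and 1469 bp, against 2765, 2293 and 2277 bp (-0.68, SE 0.22). Of these 3 members, Runx1 and Mettl21a held a coding start, and Bicral had no coding start window to be set against. Septin11, a cytoskeletal GTPase, had 1055, 0 and 730 bp, against 2689, 2000 and 2416 bp, and the collagen receptor Ddr1 had 979, 1313 and 0 bp, against 2421, 1991 and 2532 bp. Both held coding starts and lacked a peak in 1 Azin2-/- library. The log2 difference of Septin11 was -2.17 and was -1.37 without Azin2-/- replicate 2, and that of Ddr1 was -1.996 and was -1.13 without Azin2-/- replicate 8.

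Of the members with more cover in Azin2-/- libraries, 4 of 5 lacked a peak in a wild-type library. Ltbp4, which anchors latent TGF-beta in the matrix, had 2687, 2075 and 1523 bp in Azin2-/- libraries, against 0, 517 and 1177 bp in wild-type libraries (log2 difference 1.94, SE 0.62; 1.19 without wild-type replicate 1). Scrt1, a neural zinc-finger repressor, had 3227, 2780 and 1783 bp, against 0, 1793 and 1534 bp, with a log2 difference of 1.61 that was 0.55 without wild-type replicate 1. Tspan9, a tetraspanin, had 2488, 2051 and 1772 bp, against 0, 1384 and 1249 bp, and its log2 difference of 1.55 was 0.60 without that library. Mapt, the microtubule protein tau, had 2026, 1952 and 1158 bp, against 442, 1145 and 0 bp, and its log2 difference of 1.57 was 0.77 without wild-type replicate 2b. Dpysl2, a regulator of axon growth, had 2860, 2810 and 819 bp, against 689, 640 and 1003 bp before scaling. On the unscaled lengths Azin2-/- replicate 8 overlaps the wild-type libraries at Dpysl2.

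**Figure D5:**
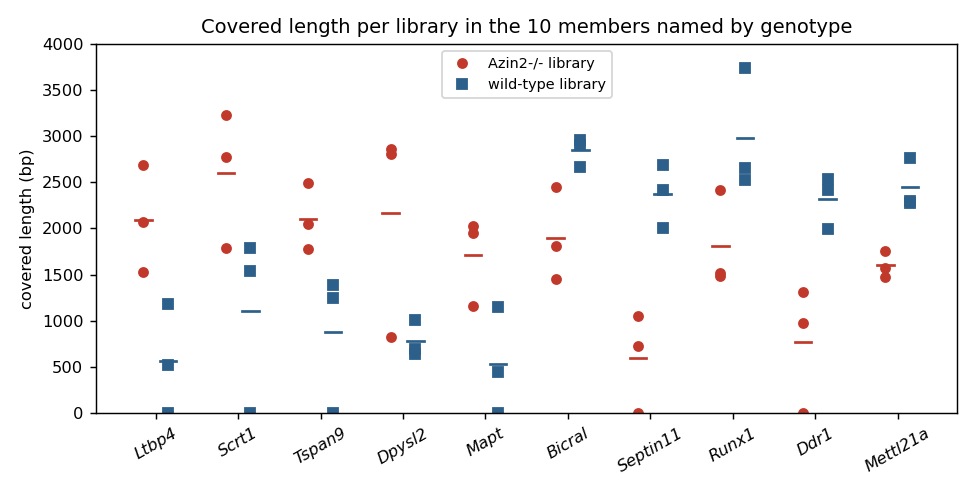
Covered length (bp, before scaling) in each library for the 10 members named by the genotype comparison, Azin2-/- libraries (red circles) left of wild-type libraries (blue squares), with a bar at each mean (n = 3). None passed the test. Ltbp4, Scrt1, Tspan9 and Mapt have a wild-type library at 0, and Septin11 and Ddr1 an Azin2-/- library at 0.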

How the data were processed

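H3K27ac ChIP-seq peak lists were analysed, 1 per library, on GRCm38 (mm10) per the submitters' processing notes. The aligner, peak caller, duplicate filter and control are not stated, and the 6 input libraries were not analysed. Each deposited peak has a score, a fold ratio over local background, −log10 values of p and q, and a summit. Every deposited score is 10 times its −log10 p, cut to a whole number. These scores and ratios are the authors' own; they ordered, filtered and described the peaks of 1 list at a time.

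Peaks on chromosomes 1 to 19 and X were ranked by score (ties by width, then position), and the first 30000 of each list were merged by 1 bp. Gene spans came from RefSeq (GRCm38.p6), which has no exons or strand in the table used; strand and starts came from RefSeq start windows of 300 bases. Covered length was scaled to equal total cover and tested with limma 3.58.1 (R 4.3.3, eBayes with a mean trend), checked on simulated data. The simulated regions shared a common normal spread and had no missing peaks, unlike the real lists, so the check does not cover those traits. The exact sign-flip test used the 6 libraries. Other work used Python 3.11.15.

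The members and the 15 gene lists were chosen with earlier results of these data known. Named are the 10 best-ranked members held by all 6 libraries, up to 10 in each direction that pass the genotype test or else the 5 of smallest p without overlap, hosts of 3 or more members, list members (up to 6 a list), neighbours of the limits, and the 5 of greatest mean cover and 5 of closest summits. Ywhaz, Dynll2 and Slc1a5, further list hosts, and which windows are printed were chosen after their values were seen; Pdgfa without wild-type replicate 1 is named as a count of 1. Replicates 2 and 2b may share a source, which the labels do not say. Alternatives covered list length, pseudocount, minimum, scaling, gap, end distance, number of libraries, the replicate number as a block and each library left out. Depth is unknown, and no interval other than for shares of regions was computed.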

Additional observations from a re-analysis of the deposited data

How the results depend on the processing

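The genotype comparison gave 0 called members under 15 of 17 alternatives. With no minimum mean limma gave the common trend infinite weight and called 13 members (3 higher, 10 lower in Azin2-/-, among them Runx1, Bicral, Septin11, Ddr1 and Scrt1). That setting tested 946 members and called 64 of all 127635 regions. Leaving out each library gave 0 to 1. The 1 was Pdgfa, lower without wild-type replicate 1 (log2 difference -1.19, limma adjusted p 4.68e-07), where 22 of all 30279 regions were called. The cause was not tested. With the replicate block 0 were called. Same-numbered libraries did not deviate together (r = -0.05 for replicates 1 and 0.08 for replicates 2), so the numbers are not taken as pairs. The median log2 difference of members ran from -0.08 without wild-type replicate 1 to 0.15 with equal median cover over regions held by 6, and without scaling it was also 0.15, so its sign is not fixed. All 10 named members kept their direction, which their choice among members without overlap between the genotypes largely brings about. The differences in covered length kept their sign under every alternative. With a library left out they ran from 214 to 238 bp against solitary intergenic and from -102 to -75.8 bp against clustered regions, with an exact permutation p of 0.0625, the smallest that 5 libraries allow. The number of members was 541 with gene ends of 5 kb, 525 when all 6 libraries had to hold a region, and 967 to 1242 with a library left out (held by at least 4 of the 5). The share with a coding start, tried after the data were seen, was 51.6% with ends of 2 kb, 48.9% with ends of 5 kb, 65.2% held by 6, 73.6%, 57.3% and 47.7% with the 5000, 15000 and 60000 strongest peaks.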
